A study of Mus musculus with 31 samples.

Results

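The genes of heparan sulfate proteoglycans form a set of 34: the glypican and syndecan core proteins, the enzymes that build and sulfate the heparan sulfate chain, and the enzymes that trim it outside the cell. They were chosen by gene symbol, and 33 of them had a row among the 17306 rows of the expression table. *Hs3st4* was not analysed here. Expression was measured in 31 mouse neuroblastomas, 1 Affymetrix array per tumor. All tumors arose in mice with a *MYCN* transgene driven by the tyrosine hydroxylase promoter, which is active in the sympathetic lineage. In 10 tumors *Alk* was wild-type (*MYCN* tumors), 10 carried a knock-in of the R1279Q mutation of *Alk* and 11 a knock-in of the F1178L mutation (together, *MYCN*/*Alk* tumors). The strain is given in the labels as 129S2 or 129B6F1, the latter a first-generation cross with C57Bl/6, without saying which for each tumor. The study's list of tumors gives it for 18 *MYCN*/*Alk* tumors, namely 5 R1279Q and 4 F1178L tumors on 129S2, and 3 R1279Q and 6 F1178L tumors on 129B6F1. The listed 129B6F1 mice were older than the 129S2 mice of the same mutation, so that age and background cannot be told apart. That list also gives chromosome gains or losses for most of the 129B6F1 tumors and for none of the 129S2 tumors. Copy number thus differed with background as well, and its part in the results was not tested. The sex and the background of the *MYCN* tumors and the age of those mice were not used here. Whether any of the tumors came from the same mouse is not given, so p values measure the spread between tumors, which may share an animal.

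Heparan sulfate is a long sugar chain attached to a few core proteins. Glypicans are held on the cell surface by a lipid anchor and syndecans by a membrane-spanning segment. The chain is polymerized by the Ext proteins in the Golgi, and is then modified in a set order: Ndst enzymes replace acetyl by sulfate groups, Glce turns glucuronic into iduronic acid, and Hs2st, Hs6st and Hs3st enzymes add further sulfates. The resulting patterns bind growth factors such as Fgf, Wnt, Hedgehog, midkine and pleiotrophin, and the extracellular enzymes Sulf1 and Sulf2 remove 6-O-sulfates again. In the sympathetic nervous system the chains take part in growth factor signaling to neuroblasts and in axon guidance.

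The deposited values are log2 levels normalized by GCRMA, which corrects the background by probe sequence. Levels of different genes are not on a common scale, and only differences of 1 gene between tumors are compared. No call of what is above background comes with them, and log2 4 was taken as that limit. The test took the 9322 rows that exceeded log2 4 in 10 tumors or more, among them 23 of the 33 genes. The other 10, *Gpc5*, *Extl1*, *Ndst3*, *Ndst4*, *Hs6st3*, *Hs3st1*, *Hs3st3a1*, *Hs3st3b1*, *Hs3st6* and *Hpse*, the gene of heparanase, lay below the limit in every tumor, between 1.86 and 2.71. Groups were compared with limma, and p values were adjusted over all 9322 rows after Benjamini and Hochberg, with 0.05 as the threshold.

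The neuroblast markers *Th*, *Dbh* and others, 8 in the list, were above log2 4 in at least 1 tumor of each group, and their summed level ran from 12.55 to 13.61 on the log2 scale in *MYCN* tumors, from 13.43 to 14.59 in R1279Q tumors and from 14.02 to 14.64 in F1178L tumors. Some tumors held RNA of other organs. *MYCN* tumor 22 had the kidney genes *Umod* at 14.55, *Slc12a1* at 13.76 and *Aqp2* at 9.09, against at most 3.49, 2.23 and 2.48 elsewhere. F1178L tumor 11 had the liver genes *Alb* at 15.46 and *Apoa1* at 11.49, and *MYCN* tumor 25 the adrenal cortex gene *Hsd3b1* at 6.34, against at most 2.10 elsewhere. F1178L tumor 4 had *Pnmt*, the adrenaline synthesis enzyme of chromaffin cells, at 10.47, against at most 6.96 elsewhere. Where leaving out tumors 11, 22 and 25 changed a call or moved a value that these tumors lead, both values are given. All 6 tested endothelial and mural cell markers were lower in *MYCN*/*Alk* tumors (median difference -1.57), and 2 of 3 tested Schwann cell markers were higher (median 1.45). Of 7 tested macrophage markers 4 were lower (median -0.64), as was the erythroid marker *Alas2* (fitted -3.66). The Schwann cell genes *Sox10*, *S100b* and *Erbb3* were below log2 4 in every tumor. In whole tumors, fewer cells of a type and less RNA per cell cannot be told apart.

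The results turned on 3 genes above all, *Gpc3*, *Hs3st2* and *Hs6st1*, and the reference sequences around their start sites are shown to identify the loci at which these tumors differed in expression. Each runs from 250 bases before to 50 bases after the start in RefSeq (GRCm38.p6), at chrX:52613925-52614224 on the minus strand for *Gpc3*, chr7:121392046-121392345 on the plus strand for *Hs3st2* and chr1:36068150-36068449 on the plus strand for *Hs6st1*. Capitals mark the GC box, GGGCGG or its reverse complement CCGCCC.
Gpc3: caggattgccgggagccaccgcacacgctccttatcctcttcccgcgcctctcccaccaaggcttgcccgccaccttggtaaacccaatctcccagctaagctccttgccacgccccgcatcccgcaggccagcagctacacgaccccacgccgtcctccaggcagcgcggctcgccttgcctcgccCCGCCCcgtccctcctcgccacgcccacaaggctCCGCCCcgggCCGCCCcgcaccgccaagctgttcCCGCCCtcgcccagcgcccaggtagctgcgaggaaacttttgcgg
Hs3st2: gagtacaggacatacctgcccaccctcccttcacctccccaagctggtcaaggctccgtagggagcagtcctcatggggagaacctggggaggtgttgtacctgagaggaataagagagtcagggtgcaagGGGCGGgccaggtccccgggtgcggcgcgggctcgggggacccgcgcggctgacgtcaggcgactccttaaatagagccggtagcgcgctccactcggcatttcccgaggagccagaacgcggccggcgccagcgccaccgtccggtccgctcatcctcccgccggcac
Hs6st1: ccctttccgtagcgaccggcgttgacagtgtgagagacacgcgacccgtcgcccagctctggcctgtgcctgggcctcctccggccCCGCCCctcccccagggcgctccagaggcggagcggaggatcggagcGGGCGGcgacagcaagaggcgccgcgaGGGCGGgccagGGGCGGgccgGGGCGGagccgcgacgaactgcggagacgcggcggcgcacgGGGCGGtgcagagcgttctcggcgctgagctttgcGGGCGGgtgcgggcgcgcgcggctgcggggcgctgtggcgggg
The window of *Gpc3* held 4 GC boxes, that of *Hs3st2* 1 and that of *Hs6st1* 7. A GC box was found in 35.7% of 32851 windows of this length, on either strand. GC content was 70.7%, 67.7% and 78.0%, against a median of 52.7% over all windows. *Hs3st2* also held TGACG, the core of the cAMP response element, on both strands of 1 palindromic site, and 20.8% of windows hold TGACG. The E-box CACGTG, the preferred site of MYC proteins, was in 7.15% of all windows and in none of these 3. A match, or its absence, describes these letters only.

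Against the *MYCN* tumors, 8 of the 23 tested genes passed the threshold in *MYCN*/*Alk* tumors, taken as the mean of both mutation means. 4 were higher, *Gpc1*, *Hs3st2*, *Sulf1* and *Sulf2*, and 4 were lower, *Gpc3*, *Glce*, *Ext1* and *Sdc1*. *Hs3st2* entered the test through mutant tumors alone, and *Gpc3* only through the *MYCN* tumors. Of all rows tested, 40.7% passed, 19% as higher and 21.6% as lower, so the share of 34.8% among these genes was near the background and is no result about the set. Their median difference was 0.01, against -0.04 over all rows. For F1178L against *MYCN*, 11 of 23 passed (7 higher and 4 lower, against a background of 46.5%, 20.1% higher and 26.4% lower), and for R1279Q against *MYCN* 4 of 23 (2 higher and 2 lower, against 17.9%, 10.8% higher and 7.04% lower). Both comparisons use the same *MYCN* tumors. Between the mutations, 2 of 23 passed, both higher in F1178L tumors (against 8.53%, 2.83% higher and 5.7% lower), and no gene of the set was free of overlap between the mutations, as 0.0536% of all rows were. In all, 12 of the 23 passed in at least 1 comparison, and which gene of each enzyme step or core protein family moved is described below by role.

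**Figure D1:**
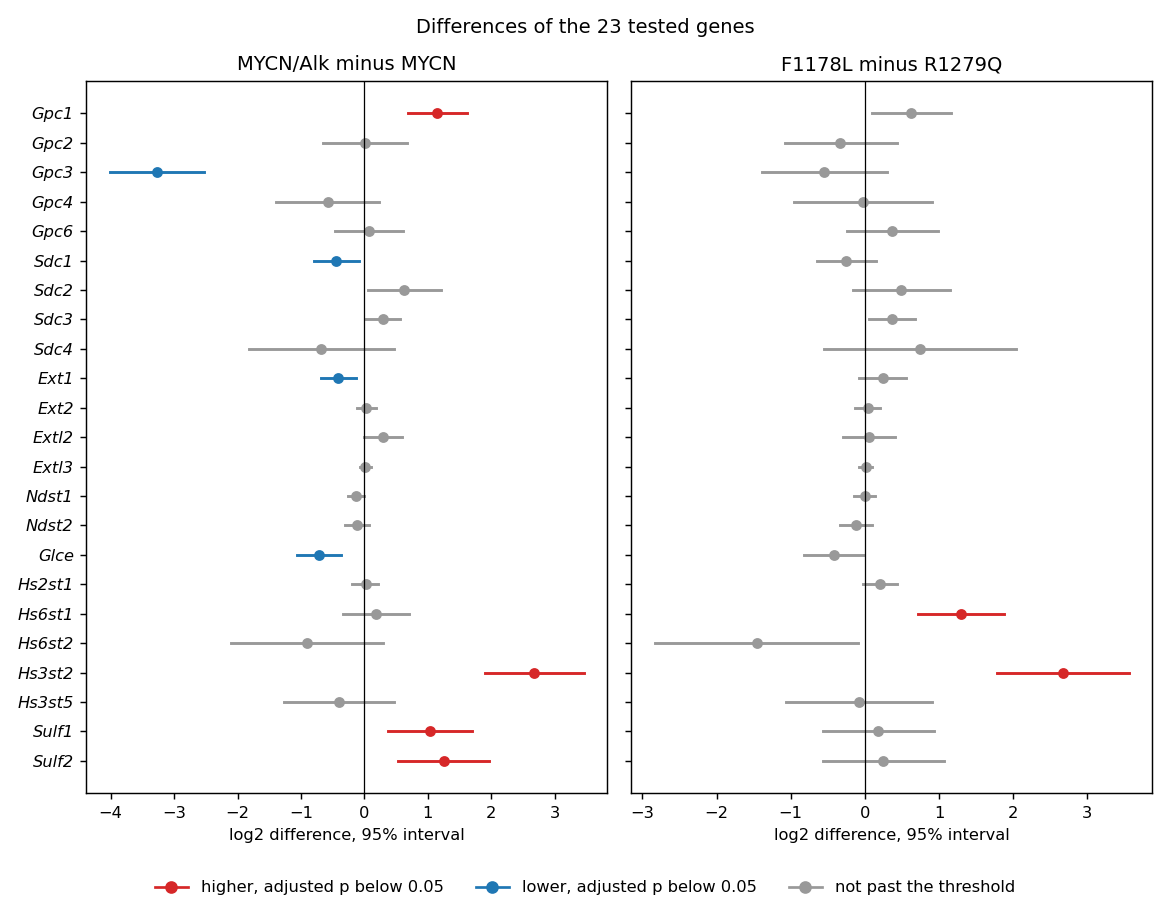
Differences between groups for the 23 tested genes, as log2 difference with 95% interval, for MYCN/Alk minus MYCN tumors (left) and F1178L minus R1279Q tumors (right); colours give the genes past an adjusted p of 0.05. The fitted values of *Gpc3*, -3.27, and *Hs3st2*, 2.68, lie farthest from 0 on the left, and on the right only *Hs3st2* and *Hs6st1* are coloured.

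Among the glypicans, *Gpc3* fell and *Gpc1* rose in *MYCN*/*Alk* tumors. Gpc3 binds Hedgehog and Wnt proteins, restrains growth of the embryo and is an oncofetal antigen of several childhood tumors. In *MYCN* tumors *Gpc3* ran from 6.86 to 7.91 with a median of 7.48. In R1279Q tumors it was 2.78, 3.09, 3.25, 3.47, 3.95, 4.62, 5.15, 5.97, 6.04 and 6.45, and in F1178L tumors 2.98, 3.07, 3.12, 3.16, 3.32, 3.65, 3.80, 4.10, 5.12, 5.32 and 5.60. Every mutant tumor was below every *MYCN* tumor, and 5 of 10 R1279Q and 7 of 11 F1178L tumors lay below the limit. *Gpc3* passed the filter through the 10 *MYCN* tumors, where it is high, since too few mutant tumors were above the limit. Its calls against *MYCN* tumors and its lack of overlap are therefore not free of this selection. Of all rows tested, 2.56% did not overlap between F1178L and *MYCN* tumors and 0.461% between R1279Q and *MYCN* tumors. The group means were 7.48 ± 0.32 (SD, n = 10), 4.48 ± 1.36 (n = 10) and 3.93 ± 0.98 (n = 11). With values under the limit set to it, the difference was at least -2.88, or 7.34-fold (fitted to the values as they stand -3.27 ± 0.36 (SE), adjusted p = 1.11e-07). By mutation it was at least -2.65 in R1279Q tumors (fitted -3.0, adjusted p = 2.76e-05) and at least -3.10 in F1178L tumors (fitted -3.55, adjusted p = 1.33e-07). The mutations did not differ past the threshold (fitted -0.55, 95% interval -1.39 to 0.30, adjusted p = 0.41).

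*Gpc3* was lower with mutant tumors of either background set against all *MYCN* tumors, whose own background was not used. The difference was at least -2.55 with the 129S2 tumors alone (adjusted p = 3.86e-06) and at least -3.37 with the 129B6F1 tumors alone (adjusted p = 2.07e-08). No comparison with *MYCN* tumors was made within a background. Within R1279Q the 5 tumors on 129S2 averaged 5.01 ± 1.15 and the 3 on 129B6F1 3.27 ± 0.61, and within F1178L the 4 and 6 tumors averaged 4.62 ± 0.90 and 3.57 ± 0.90. By group, the endothelial and mural markers moved the same way as *Gpc3*. Their summed level ran from 10.67 to 12.53 in *MYCN*, 7.13 to 12.98 in R1279Q and 8.46 to 11.84 in F1178L tumors. The highest sum, 12.98, was in R1279Q tumor 8, which had the lowest *Gpc3* at 2.78. *Cdh5* was below the limit in every *MYCN* and F1178L tumor and *Kdr* in every F1178L tumor. The part of these markers in the result was not tested.

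*Gpc1*, the main glypican of neurons and a co-receptor for Fgf and Slit proteins, ran from 6.28 to 7.90 in *MYCN* tumors (median 7.05), from 7.08 to 8.57 in R1279Q tumors (median 7.61) and from 6.57 to 9.27 in F1178L tumors (median 8.70). The groups overlapped, and the lowest F1178L value was in tumor 4, without which F1178L tumors also exceeded R1279Q tumors past the threshold (0.81, adjusted p = 0.0211, from 0.62 and 0.122 with it). The difference from *MYCN* tumors was 1.15 ± 0.23, a fold of 2.22 (adjusted p = 2.62e-04). It was 1.46 in F1178L (adjusted p = 5.48e-05) and 0.84 in R1279Q tumors (adjusted p = 0.0275). The R1279Q call was lost without R1279Q tumor 5, 16 or 17 or without *MYCN* tumor 23, with an adjusted p of up to 0.0581, and with the 129B6F1 tumors alone (0.73, adjusted p = 0.306).

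The other glypicans did not pass the threshold. *Gpc2*, a glypican of developing neurons that is used as an antigen in human neuroblastoma, was between 5.28 and 9.03 in all tumors, with group means of 7.57, 7.75 and 7.42 (*MYCN*, R1279Q, F1178L) and a difference of 0.01 (95% interval -0.65 to 0.67). *Gpc6* had means of 6.44, 6.32 and 6.69. *Gpc4* is the neighbour of *Gpc3* on the X chromosome, with no protein-coding gene between them, as *Gpc5* is of *Gpc6* on chromosome 14. *Gpc4* was above the limit in 11 of 31 tumors, and the difference from *MYCN* tumors was -0.58 ± 0.40 (adjusted p = 0.252). Its level of 8.88 in *MYCN* tumor 22, the tumor with kidney genes, stood far above the next *MYCN* tumor at 4.91, and without tumors 11, 22 and 25 the difference was -0.09 (adjusted p = 0.81). Outside tumor 22, the highest value was 6.33 in R1279Q tumor 8.

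**Figure D2:**
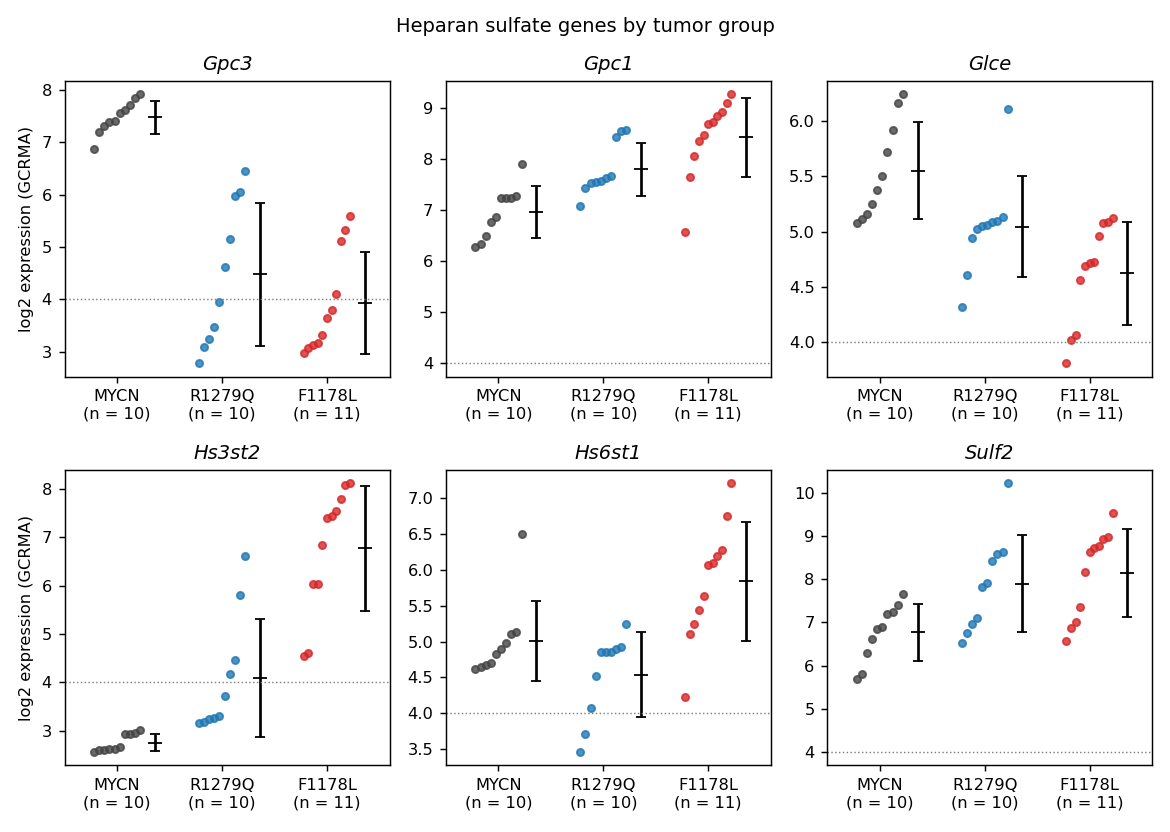
Log2 expression of 6 genes in each tumor of the 3 groups; points are tumors, bars the mean ± SD, and the dotted line the limit of log2 4. *Gpc3* and *Hs3st2* show no overlap between MYCN and mutant tumors, while *Gpc1*, *Glce*, *Hs6st1* and *Sulf2* overlap.

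The 4 syndecans were all tested, and their calls were fewer or smaller than those of *Gpc3* and *Gpc1*. *Sdc1*, which carries both heparan and chondroitin sulfate, was between 4.86 and 6.38 in *MYCN*, 4.76 and 6.25 in R1279Q and 4.33 and 6.02 in F1178L tumors, with medians of 5.65, 5.17 and 5.03. It was lower in *MYCN*/*Alk* tumors by -0.44 ± 0.17 (adjusted p = 0.0399), a call that was lost on leaving out any 1 of 17 of the 31 tumors, and kept without tumors 11, 22 and 25 (-0.59, adjusted p = 0.0069). It was -0.73 with the 129S2 tumors alone and -0.18 with the 129B6F1 tumors alone (adjusted p = 0.577). F1178L tumors were lower by -0.57 (adjusted p = 0.0181), or -0.76 without the 3 tumors. *Sdc3*, the syndecan of neurons that binds pleiotrophin, had group means of 4.36 ± 0.35, 4.47 ± 0.22 and 4.84 ± 0.43 and rose in F1178L tumors by 0.47 (adjusted p = 0.0118). That difference was 0.38 (adjusted p = 0.0454) without tumors 11, 22 and 25, 0.83 with the 129S2 tumors alone and 0.20 with the 129B6F1 tumors alone (adjusted p = 0.44). *Sdc2*, a syndecan of mesenchymal cells and of synapses, had means of 4.02 ± 0.88, 4.41 ± 0.51 and 4.90 ± 0.83 and rose in F1178L tumors by 0.88 (adjusted p = 0.0248), or by 0.61 with values under the limit set to it. The call was lost without F1178L tumor 4, the tumor with *Pnmt* and the highest *Sdc2* at 6.41, or without *MYCN* tumor 21 or 33 (adjusted p up to 0.0539).

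Tumors with RNA of other organs bore on *Sdc2* and *Sdc4*. *Sdc2* was 6.13 in *MYCN* tumor 22, where the next *MYCN* tumor had 4.63, and 5.81 in F1178L tumor 11. *Sdc4*, a widely expressed syndecan of cell adhesions, was 10.68 in tumor 22 and at most 6.97 in any other tumor. Without tumors 11, 22 and 25, *Sdc2* passed the threshold in *MYCN*/*Alk* tumors as a whole (0.93, adjusted p = 0.00433, from 0.63 and 0.0713 with them). It was above the limit in 4 of 10 *MYCN* tumors, tumors 22 and 25 among them, so both sizes rest in part on values below it. With such values set to the limit, the *Sdc2* difference with all tumors was 0.39. *Sdc4* passed in no comparison: with all tumors the difference was -0.68 (95% interval -1.82 to 0.46), and without tumors 11, 22 and 25 it was -0.24 (adjusted p = 0.692).

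**Figure D3:**
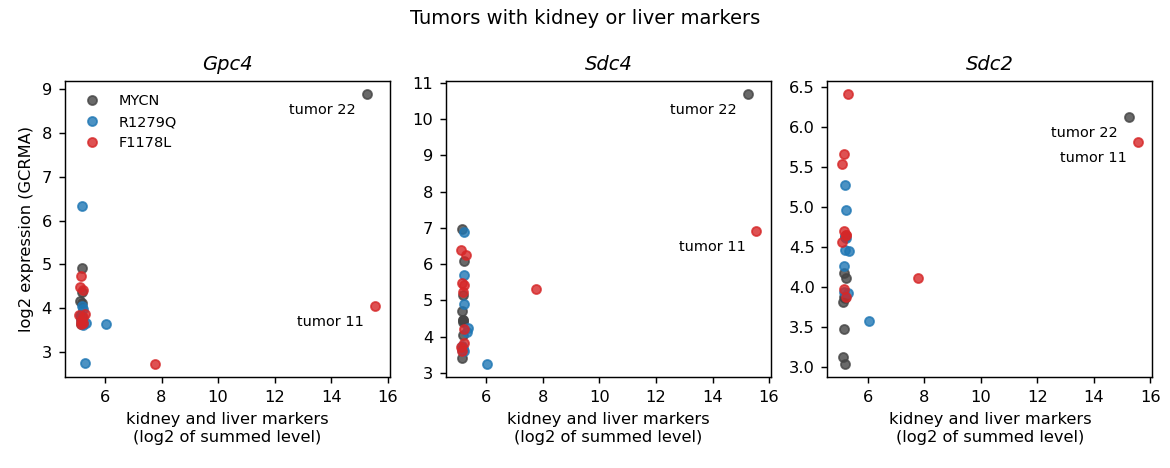
Log2 expression of *Gpc4*, *Sdc4* and *Sdc2* in each tumor against the log2 of the summed level of 7 kidney and liver markers. MYCN tumor 22, at a marker level of 15.25, has the highest *Gpc4* and *Sdc4*, and F1178L tumor 11, at 15.55, has *Sdc2* at 5.81.

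Of the chain polymerases, *Ext1* fell and its partner *Ext2* did not change past the threshold. Ext1 and Ext2 form the enzyme complex that elongates the chain. *Ext1* ran from 7.41 to 8.48 in *MYCN* (median 7.84), from 7.0 to 7.85 in R1279Q (median 7.36) and from 6.75 to 8.39 in F1178L tumors (median 7.54), with overlap of all groups. The difference was -0.41 ± 0.14 for *MYCN*/*Alk* (adjusted p = 0.0189), -0.53 for R1279Q (adjusted p = 0.021) and -0.29 for F1178L tumors (adjusted p = 0.13). Without *MYCN* tumor 32 the first was no longer past the threshold (adjusted p = 0.0515), nor without tumors 11, 22 and 25 (-0.38, adjusted p = 0.0557), nor with the 129B6F1 tumors alone (-0.47, adjusted p = 0.101). *Ext2* stood at means of 7.47 ± 0.11, 7.48 ± 0.26 and 7.52 ± 0.11, with a difference of 0.03 (95% interval -0.12 to 0.18). *Extl2*, which acts on the linkage region, had a difference of 0.29 (adjusted p = 0.117). *Extl3*, which starts the chain, lay between 4.33 and 4.53 in all 31 tumors, with an SD of 0.03 to 0.04 within groups, as small as that of genes below the limit.

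Neither of the 2 tested N-deacetylase/N-sulfotransferases, whose step sets where later sulfates can be added, passed in any comparison. *Ndst1* had means of 7.93 ± 0.12, 7.80 ± 0.18 and 7.80 ± 0.07, a difference from *MYCN* tumors of -0.13 with a raw p = 0.0403 in limma (adjusted p = 0.0861). *Ndst2* had means of 4.86, 4.81 and 4.69. *Hs2st1*, the single 2-O-sulfotransferase, had means of 8.21, 8.12 and 8.33 and a difference of 0.02 (95% interval -0.19 to 0.22).

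*Glce*, the C5-epimerase that makes iduronic acid ahead of 2-O-sulfation, fell. It ran from 5.08 to 6.24 in *MYCN* tumors (median 5.44), from 4.32 to 6.11 in R1279Q tumors (median 5.06) and from 3.81 to 5.12 in F1178L tumors (median 4.72). The highest F1178L tumor was just above the lowest *MYCN* tumors, and the R1279Q value of 6.11, in tumor 9, stood apart from the next at 5.13. The difference was -0.72 ± 0.17, a fold of 1.65 (adjusted p = 0.00134), with -0.93 in F1178L (adjusted p = 2.86e-04) and -0.51 in R1279Q tumors (adjusted p = 0.0713). Without R1279Q tumor 9, or without *MYCN* tumor 22 or 26, R1279Q also passed. The R1279Q difference passed as well without tumors 11, 22 and 25 (-0.6, adjusted p = 0.0493). The call for *MYCN*/*Alk* was kept with either background alone (-0.70 and -0.79).

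The 6-O-sulfotransferases were called in opposite directions in F1178L against *MYCN* tumors, with the fall of *Hs6st2* close to the threshold. *Hs6st1* ran from 4.62 to 6.5 in *MYCN* tumors (median 4.86), the highest in tumor 22 and the next at 5.14. It ran from 3.46 to 5.25 in R1279Q tumors (median 4.85) and from 4.22 to 7.21 in F1178L tumors (median 6.07). 8 of 11 F1178L tumors lay above every R1279Q tumor. It rose in F1178L tumors by 0.83 against *MYCN* (adjusted p = 0.0175) and by 1.3 ± 0.29, a fold of 2.47, against R1279Q tumors (adjusted p = 0.00814), while R1279Q and *MYCN* tumors differed by -0.47 (adjusted p = 0.273). Against *MYCN*, the F1178L difference was 1.03 without tumors 11, 22 and 25, 1.57 with the 129S2 tumors alone and 0.28 with the 129B6F1 tumors alone (adjusted p = 0.533).

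*Hs6st2*, on the X chromosome with 3 protein-coding genes between it and *Gpc3*, was below 2.7 or above the limit in each tumor. In *MYCN* tumors it was 2.49, 2.54, 2.56, 2.65, 4.84, 5.09, 6.64, 6.91, 7.15 and 7.26, and in R1279Q tumors 7 of 10 were above log2 4, up to 6.95. In F1178L tumors only tumors 4, 30 and 37 were above it, at 4.93, 4.04 and 5.17. F1178L tumors were lower than *MYCN* tumors by at least -0.62 (fitted -1.64 ± 0.67, adjusted p = 0.0452), a call that was lost on leaving out any 1 of 14 of the 31 tumors and without tumors 11, 22 and 25 (adjusted p = 0.0649). The X-linked genes *Gpc3* and *Hs6st2* thus differed in their pattern: *Gpc3* was 7.55, 7.61, 7.71 and 7.38 in the 4 *MYCN* tumors with *Hs6st2* under 3.

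Of the 3-O-sulfotransferases, which add the rarest sulfate of the chain, only *Hs3st2* and *Hs3st5* were above the limit in any tumor. *Hs3st2*, known as a neuronal member of the family, was below the limit in every *MYCN* tumor, between 2.56 and 3.02. In R1279Q tumors it was 3.16, 3.19, 3.25, 3.26, 3.31, 3.72, 4.18, 4.46, 5.81 and 6.62, and in F1178L tumors 4.55, 4.61, 6.04, 6.04, 6.85, 7.40, 7.45, 7.54, 7.79, 8.08 and 8.12. It was thus above the limit in 0 of 10, 4 of 10 and 11 of 11 tumors, and every mutant tumor was above every *MYCN* tumor, though 6 R1279Q tumors only within the range below the limit. The gene entered the test through mutant tumors alone, and so had to differ to be tested against *MYCN*. F1178L tumors were higher than *MYCN* tumors by at least 2.77, or 6.82-fold (fitted 4.01 ± 0.44, adjusted p = 5.09e-08). R1279Q tumors were higher by at least 0.10 (fitted 1.34 ± 0.45, adjusted p = 0.0348), a call lost on leaving out any 1 of 9 tumors (adjusted p up to 0.0739), and both together by at least 1.43 (fitted 2.68, adjusted p = 3.96e-06).

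F1178L tumors exceeded R1279Q tumors in *Hs3st2* by at least 2.26, or 4.8-fold, with values under the limit set to it (fitted 2.67 ± 0.44, adjusted p = 0.0012). The gene passed the filter through the F1178L tumors, all above the limit, so this call is not free of that selection either. On leaving out each tumor in turn the fitted difference stayed between 2.54 and 2.95. Schwann cell markers rose as well in *MYCN*/*Alk* tumors: their summed level was 6.0 to 7.11 in *MYCN*, 6.26 to 10.01 in R1279Q and 6.20 to 12.01 in F1178L tumors. Their part in the result was not tested. *Hs3st5* was above the limit in 11 of 31 tumors, between 2.27 and 7.63, the last in R1279Q tumor 9, and passed in none of the 4 comparisons (fitted -0.40 against *MYCN*, adjusted p = 0.475).

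Both extracellular sulfatases, which remove 6-O-sulfates at the cell surface, rose in *MYCN*/*Alk* tumors. *Sulf2* ran from 5.70 to 7.66 in *MYCN* (median 6.88), from 6.52 to 10.22 in R1279Q (median 7.85) and from 6.56 to 9.54 in F1178L tumors (median 8.62), with overlap. The difference was 1.25 ± 0.35, a fold of 2.37 (adjusted p = 0.00589), with 1.37 in F1178L (adjusted p = 0.00625) and 1.12 in R1279Q tumors (adjusted p = 0.0545, past the threshold on leaving out any 1 of 9 tumors). With the 129B6F1 tumors alone F1178L did not pass (0.95, adjusted p = 0.121) and R1279Q did (2.38, adjusted p = 0.0175), while with the 129S2 tumors alone the values were 1.99 and 0.28. *Sulf1* ran from 2.99 to 5.30 in *MYCN* tumors (median 3.39), where 4 of 10 were above the limit, from 3.11 to 6.09 in R1279Q (median 4.75, 8 of 10) and from 3.75 to 6.41 in F1178L tumors (median 5.04, 10 of 11). The difference was at least 0.54 (fitted 1.04 ± 0.32, adjusted p = 0.0114), with at least 0.63 in F1178L tumors (adjusted p = 0.0129) and an adjusted p of 0.0764 in R1279Q tumors. Sulf1 is also made by fibroblasts, whose summed markers ran from 10.11 to 12.44, 9.72 to 13.88 and 11.58 to 14.30 in the 3 groups, with 1 of 7 tested markers past the threshold, higher. Their part in the result was not tested.

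On the 129S2 background F1178L and R1279Q tumors differed in more of these genes, and in more of all rows. On that background every listed F1178L mouse was younger than every listed R1279Q mouse. The listed R1279Q mice were all male, while the F1178L mice were of both sexes. Mutation and age thus cannot be told apart there, and sex differed in part with mutation. Within 129S2, with 4 F1178L and 5 R1279Q tumors, 8 of the 23 genes passed. Of all rows, 28% passed there in either direction, against 8.53% with all tumors, so the count is no result about the set. All 8 were higher in F1178L tumors: *Hs3st2* (at least 3.38, adjusted p = 0.0019), *Hs6st1* (2.18, adjusted p = 0.00258), *Sulf2* (1.71, adjusted p = 0.0028), *Gpc1* (1.10, adjusted p = 0.00713), *Sdc3* (0.73), *Ext1* (0.46), *Hs2st1* (0.40) and *Hs3st5* (adjusted p = 0.0126). The *Hs3st5* group means of 2.61 and 3.98 were both below the limit, so that no size is given. Within 129B6F1, with 6 F1178L and 3 R1279Q tumors, limma called none of the genes and none of the 9322 rows, where 462 rows, 1 of these genes among them, had an unadjusted p below 0.05. There the fitted differences were 1.19 for *Hs3st2* and 0.75 for *Hs6st1* (adjusted p = 0.958 for both). With background as a covariate both kept their calls (2.52, adjusted p = 0.0314, and 1.5, adjusted p = 0.0204).

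The means of the sulfatases had opposite orders on the 2 backgrounds, as did those of other genes of the set, among them *Hs3st5*, *Gpc2* and *Ndst2*. *Sulf2* was 6.52 to 7.90 in R1279Q and 8.62 to 8.93 in F1178L tumors on 129S2, but 8.59 to 10.22 in R1279Q and 6.56 to 9.54 in F1178L tumors on 129B6F1. *Sulf1* averaged 4.05 ± 0.90 (n = 5) and 5.46 ± 0.71 (n = 4) on 129S2, and 5.74 ± 0.55 (n = 3) and 4.38 ± 0.54 (n = 6) on 129B6F1, and with values under the limit set to it F1178L minus R1279Q was 1.07 and -1.32. The difference between F1178L and R1279Q was larger on 129S2 than on 129B6F1 by 3.14 ± 0.78 for *Sulf2* (raw p = 9.46e-04, adjusted p = 0.102) and by 2.77 ± 0.63 for *Sulf1* (raw p = 4.35e-04, adjusted p = 0.0908) in limma. Neither passed after adjustment, and none of the other 21 genes did either. An unadjusted p below 0.05 was found for 7 of the 23, *Hs3st5* among them (raw p = 0.017 in limma). The same held for 1420 of all 9322 rows, of which 7 rows (0.0751%) passed after adjustment. This test was chosen after the values were seen.

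**Figure D4:**
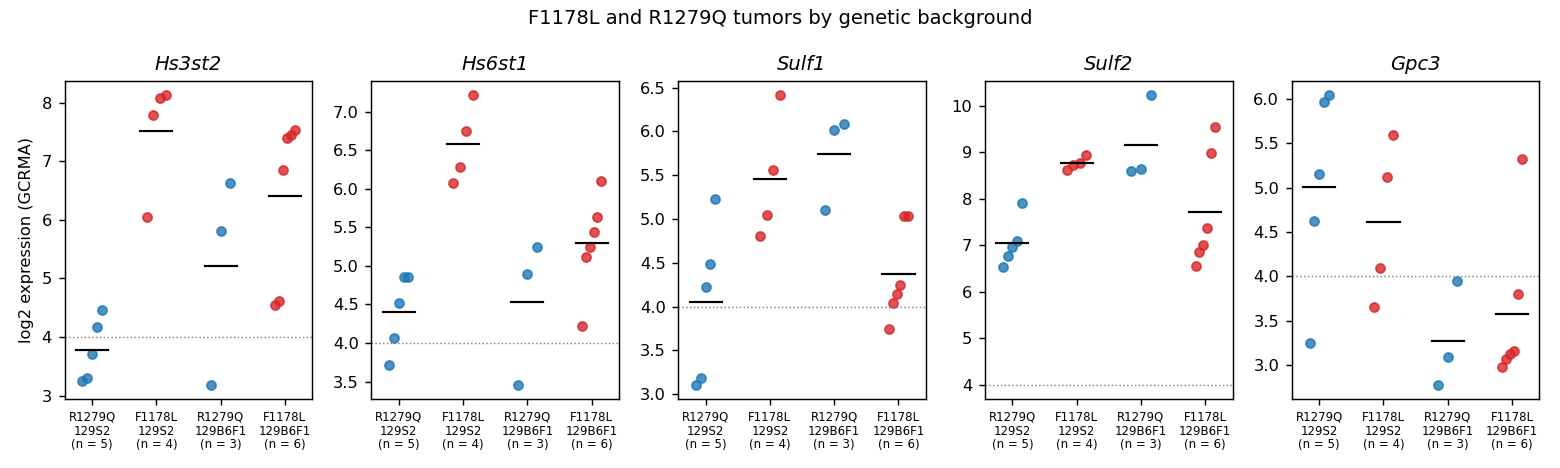
Log2 expression of 5 genes in the F1178L and R1279Q tumors of listed background; points are tumors, lines the means, and the dotted line log2 4. The means of *Hs3st2* and *Hs6st1* are higher in F1178L tumors on both backgrounds. Those of *Sulf1* and *Sulf2* are higher in F1178L tumors on 129S2 and in R1279Q tumors on 129B6F1.

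Other genes of the pathway were counted beside them in *MYCN*/*Alk* against *MYCN* tumors. Of 9 tested core proteins that carry heparan sulfate at times, 3 rose: *Nrp1*, a semaphorin and Vegf receptor, by 2.10 (adjusted p = 1.01e-07), *Spock1*, a testican, by 1.47 (adjusted p = 1.64e-04) and agrin, *Agrn*, by 0.52 (adjusted p = 0.00233). *Nrp1* means were 8.22 ± 0.47, 9.72 ± 0.78 and 10.94 ± 0.58, and F1178L exceeded R1279Q tumors by 1.22 (adjusted p = 0.00746). Of 3 tested linkage region enzymes 1 rose, the xylose kinase *Fam20b* (0.28, adjusted p = 0.00525). Of 6 tested genes for sugar and sulfate donors, the transporter of sulfate donor *Slc35b3* rose (0.58, adjusted p = 1.57e-04) and its paralog *Slc35b2* fell (-0.33, adjusted p = 0.0361).

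Of 4 tested lysosomal enzymes of heparan sulfate breakdown, *Gusb* (0.35) and *Idua* (0.18) rose. Of 10 tested heparan sulfate binding factors and receptors, the receptor phosphatase *Ptprf* rose (0.47, adjusted p = 0.00957), and the growth factor *Hbegf* (-0.67, adjusted p = 0.00194) and the Slit receptor *Robo1* (-1.04, adjusted p = 0.0242) fell. *Robo1* was also lower in F1178L than in R1279Q tumors (-1.46, adjusted p = 0.0305), as was its ligand *Slit2* (-0.74, adjusted p = 0.0453). Of 11 tested chondroitin and dermatan sulfate genes, the midkine and pleiotrophin receptor *Ptprz1* rose by at least 0.50 (adjusted p = 0.00751), though it was above the limit in 0 of 10 *MYCN* tumors and so entered the test through mutant tumors alone, and the epimerase *Dsel* fell (-0.80, adjusted p = 0.0398). These shares, between 18.2% and 50% of each list, are to be read beside the 40.7% of all rows.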

How the data were processed

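The authors normalized the arrays by GCRMA with Brainarray gene definitions and deposited log2 values, 1 row per gene and 1 column per tumor; versions and settings are not given in the sources used here. The values ran from 1.31 to 15.46, array medians from 4.22 to 4.66, and the lowest correlation between 2 arrays was 0.89; no 2 arrays were identical. Arrays give no counts, so that the number of tumors limits the precision. Rows were named by their Entrez gene identifier, 16464 of 17306 through the platform table and 480 more through the mouse RefSeq table (GRCm38.p6), and 362 stayed unnamed. Groups follow the genotype in the tumor titles, and tumors were linked by tumor number to the background and sex in the study's list.

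The 9322 rows that exceeded log2 4 in 10 tumors or more were fitted with limma 3.58.1 in 1 model of 3 groups, two-sided, with Benjamini-Hochberg adjustment over all of them and a threshold of 0.05. The script was tested on simulated data. In a group whose mean lay under log2 4, lower values were raised to log2 4 before the difference was taken, which is then a bound (at least). Values under log2 4 in any group were so raised for *Gpc3* and for *Hs3st2* between mutations. The same was done for *Sdc2* in F1178L and in *MYCN*/*Alk* against *MYCN*, and for *Sulf1* between mutations by background. The filter takes 10 of 21 *MYCN*/*Alk* but all 10 *MYCN* tumors, so that it admits rises more readily than falls. The genes described and the pathway and marker lists were chosen with earlier results of these data known. Genes called in *MYCN*/*Alk* against *MYCN* or in F1178L against R1279Q are described by their range in each group, most with the median. For *Gpc3* and *Hs3st2* the mutant tumors are listed singly, as are the *MYCN* tumors for *Hs6st2*. Of each pathway list, up to 4 genes past the threshold with the largest difference are given. Genes past it only in F1178L against R1279Q were added after their values were seen. Sums of marker lists add the linear levels and are on the log2 scale. Promoter windows were matched by symbol for 24 of the 33 genes. Alternatives were no filter or a stricter one at log2 6, equal medians, quantile normalization, the methods' Student's test, moderation and array weights, background and sex, *MYCN*/*Alk* as 1 group, and leaving out each tumor; leaving out tumors 11, 22 and 25 and the test of background against mutation were added after the data were seen.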

Additional observations from a re-analysis of the deposited data

Results flagged for a closer look

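For a single comparison, chance passes Dixon's 95% value about 1 time in 20, and genes of the same arrays are not independent comparisons. In 46 comparisons of the highest or lowest tumor with the rest of its group, in the *MYCN* and R1279Q groups of 10 tumors each, 12 lay farther apart than that value. Of these, 8 were in *MYCN* tumor 22, the tumor with kidney genes: *Gpc4* 8.88 (next 4.91), *Sdc4* 10.68 (next 6.97), *Sdc2* 6.13 (next 4.63) and *Hs6st1* 6.5 (next 5.14) were its high values, and *Gpc6* 5.46 (next 6.28), *Sdc3* 3.54 (next 4.22), *Ext2* 7.18 (next 7.42) and *Extl3* 4.33 (next 4.43) its low ones. In R1279Q tumor 9, *Glce* was high at 6.11 (next 5.13), and *Ndst1* at 7.33 (next 7.76) and *Extl3* at 4.36 (next 4.43) were low. In R1279Q tumor 8 *Gpc4* was 6.33 (next 4.04). The F1178L group, with 11 tumors, was not examined in this way.

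By the direct test of F1178L against R1279Q, the effects of the mutations differed for *Hs3st2* by 2.67 and for *Hs6st1* by 1.3.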

How the results depend on the processing

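Of the 25 calls of single genes, 19 kept direction and threshold on leaving out each tumor in turn, and 6 were lost without some tumor: *Sdc1* and *Ext1* in *MYCN*/*Alk*, *Sdc2* and *Hs6st2* in F1178L, and *Gpc1* and *Hs3st2* in R1279Q against *MYCN*. No paired analysis was possible because tumor numbers are not shared between groups. For *MYCN*/*Alk* against *MYCN*, 5 genes of the set passed with the filter at log2 6 (8 before), and 2304 rows with the 129B6F1 tumors alone (3793 before). For F1178L against *MYCN*, 4 genes passed with the filter at log2 6 and 4 with 129B6F1 tumors alone (11 before), with 2207 rows in the latter (4333 before). For R1279Q against *MYCN*, 2 genes passed with no filter and 7 with array weights (4 before), with 3479 rows under weights and 683 with 129B6F1 tumors alone (1667 before); leaving out 1 tumor gave 2 to 6 genes, with 2 without R1279Q tumor 5 or 16 or *MYCN* tumor 23. For F1178L against R1279Q, 1 gene passed with the filter at log2 6, 6 with weights, 8 within 129S2 and 0 within 129B6F1 (2 before). The rows called there, 795, became 481 with no filter, 483 with equal medians, 340 with the Student's test, 3042 with weights, 2609 within 129S2, 0 within 129B6F1 (462 at an unadjusted p below 0.05 in limma), 449 with background as a covariate and 220 with sex added, and 346 to 1184 on leaving out 1 tumor, with a fall by over 1.5 times for each of tumors 13, 18 and 24 (R1279Q) and 28, 29, 31 and 36 (F1178L). Genes that changed sign were *Hs3st5*, at 0.00 and 0.67 with 129B6F1 tumors alone (*MYCN*/*Alk* and R1279Q against *MYCN*) and, in F1178L against R1279Q, at 0.47 with weights, 1.37 within 129S2 (both means below log2 4), 0.09 and 0.18 with background and with background and sex, and -0.22 to 0.37 on leaving out 1 tumor; *Gpc6* in F1178L against *MYCN*, at -0.10 with 129B6F1 tumors; and *Sulf2* in F1178L against R1279Q, at -1.43 within 129B6F1. The causes were not tested; subsets by background hold fewer tumors. Of 50 further gene comparisons that no setting other than leaving out a tumor called, 25 changed sign in some alternative.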
